A study of Mus musculus with 6 samples.

Results

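The genes described here are those whose response to SB431542, a kinase inhibitor, differed between 2 mouse epiblast stem cell (EpiSC) lines, one derived from E3.5 and one from E5.5 embryos. For each gene the change between treated and untreated cells was taken in each line, as a difference of log2 signals, and the change in the E5.5 line was subtracted from that in the E3.5 line. A gene entered where this difference was 2 log2 units or more in size, which is 4-fold, or where the lines responded with opposite signs by 1 log2 unit or more in each. It also had to be well above background on the brighter array of each pair. Of 17015 named genes on the array, 15416 passed this background filter and 627 met the rule, 300 with the higher response in the E3.5 line and 327 with the lower. At the level of probes, 1342 of 41165 met it, 508 of them without a gene name and not described further.

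The cells were of mouse strain 129, and their total RNA, carrying the dye Cy3, was read on Agilent arrays of 1 colour. The 4 groups used here are untreated E3.5 EpiSC, E3.5 EpiSC given SB431542 at 20 µM each day over 4 days, and the same pair of E5.5 EpiSC. All were cultured in Knockout DMEM with 20% knockout serum replacement, and an untreated and a treated array of mouse embryonic stem (mES) cells completed the 6 arrays of the study. The mES cells were labelled E3.5, like the first EpiSC line, and the treated ones had the same dose over the same days. Each group was 1 array and each embryonic stage 1 line, so no value has a replicate error, no test of the difference between lines can be made and everything below is a description of 4 RNA samples.

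SB431542 inhibits the kinases ALK4, ALK5 and ALK7, through which TGF-beta, Activin and Nodal signal, and leaves the receptors for bone morphogenetic proteins (BMPs) largely untouched. EpiSCs are primed pluripotent cells that need Activin or Nodal signalling, acting through SMAD2 and SMAD3, to hold the pluripotency network and to block neural differentiation. When that signal is removed, epiblast cells commonly turn toward neuroectoderm, whose regional identity is then set by Wnt, retinoic acid, BMP and Hedgehog signals. TGF-beta signalling also drives genes of the contractile cytoskeleton and of the collagen matrix in mesenchymal cells.

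Each signal below is the log2 intensity minus that of the array's 75th percentile, in the order untreated E3.5, treated E3.5, untreated E5.5 and treated E5.5 unless stated otherwise. Between 82.6% and 85.7% of spots were well above background on an array and none were saturated. Repeat spots of a probe had a median coefficient of variation from 5.42% to 7.76% over the 6 arrays. The median log2 spread of repeat spots on the 4 EpiSC arrays gives a difference over them a standard deviation of 0.19 from spot noise alone. This rests on the median of 245 repeated probes and need not hold for dim ones. The number of arrays also limits the precision. Both E5.5 arrays lay on slide 1 with the mES arrays, whereas the untreated E3.5 array was on slide 2 and the treated one on slide 3. Slide and treatment therefore cannot be told apart in the E3.5 pair, nor slide and line.

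The labels fitted the markers of pluripotent cells that had responded to the inhibitor in both lines. Pou5f1, the POU factor at the centre of pluripotency, stood at 5.73, -5.39, 5.88 and -4.38, and Lefty1, a feedback inhibitor induced by Nodal, at 5.31, -5.30, 6.17 and -3.94. Both were very low after treatment in either line, and their differences between the lines were -0.87 and -0.49. Nanog (-0.47), T (-0.37), Fgf5 (0.999), Cdh1 (0.40), Sox2 (0.34), Pax6 (0.93), Hes5 (0.79), Id1 (0.27) and Vim (-0.56) likewise differed between the lines' responses by 1 log2 unit or less. The summed signal of 20 core pluripotency genes, in units of the array's 75th percentile, was 180 and 181 in untreated E3.5 and E5.5 cells and 56.3 and 65.1 in treated ones.

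Across the 15416 genes the responses of the lines were related, with Pearson's r of 0.723 and Spearman's rho of 0.670. These describe genes within 2 pairs of arrays that share a platform, a spot layout and a normalization, and genes are not independent replicates. The response was wider in the E3.5 line, with an interquartile range of 1.18 log2 units against 0.656 in the E5.5 line. In the E3.5 pair 11.4% of genes were higher by 1 log2 unit or more and 19.7% lower, and in the E5.5 pair 6.6% were higher and 8.96% lower. Genes with the higher response in the E3.5 line made up 1.95% of those measured and genes with the lower response 2.12%. Opposite signs made up 0.396%, or 61 genes, for up in E3.5 and down in E5.5, and 0.13%, or 20 genes, for the reverse.

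**Figure D1:**
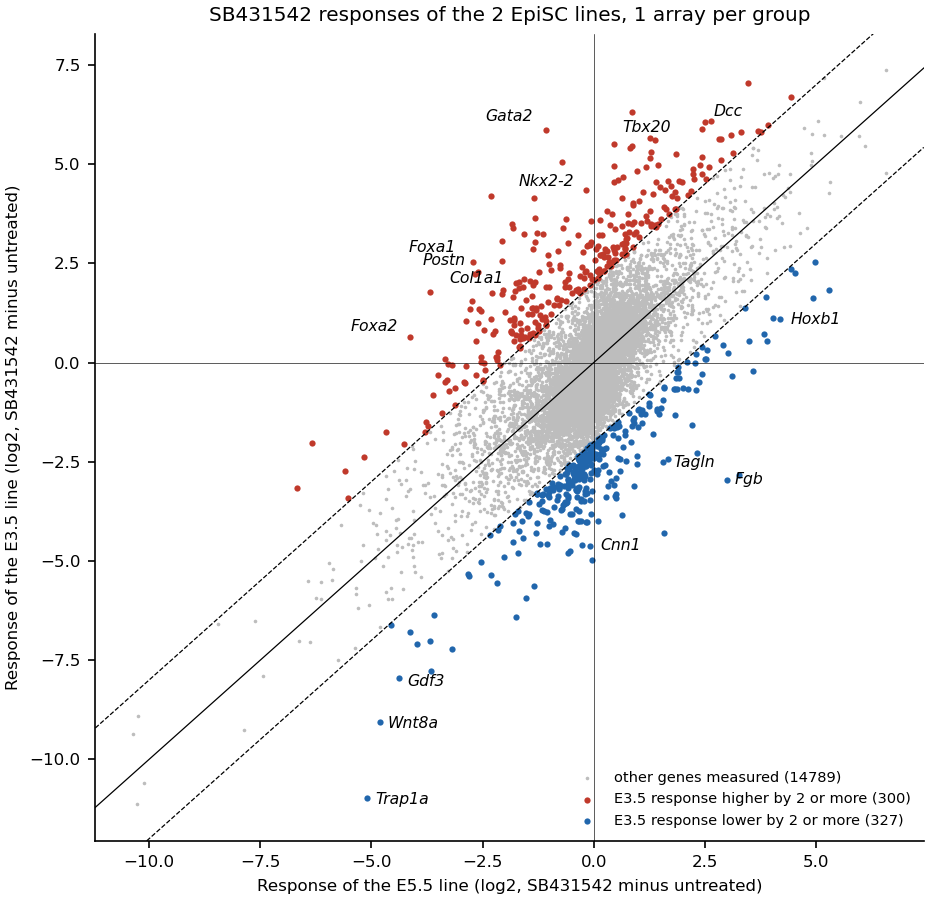
SB431542 response of the E3.5 line (vertical, log2) against that of the E5.5 line (horizontal, log2) for 15416 genes, 1 point per gene, with the line of equal response and dashed lines at a difference of 2. Red points (300) have the higher and blue points (327) the lower response in the E3.5 line; signals below background are plotted as measured, as for Trap1a.

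How many genes fell on each side depended on the scaling, so the directions are given with their alternatives. The median difference over all genes was -0.20 log2 units, with median responses of -0.30 in the E3.5 line and -0.05 in the E5.5 line. Genes with the higher response were 47.8% of the 627, and 63.7% (406 against 231) after cyclic loess normalization between the arrays. They were 65.6% (433 against 227) with each response centred on its median gene. With the normexp background model the split was 212 against 79, or 72.9%. Of the 300 genes with the higher response, all remained past the rule under each of the 4 other ways of scaling the arrays, and 181 under normexp. Of the 327 with the lower response, 211 remained under those scalings. Since each of these scalings shifts the median difference upward, by 0.06 to 0.25, higher genes could hardly leave and lower genes near the threshold had to, so the 300 and the 211 say little about stability. Of the lower genes 76 remained under normexp, which adds a constant of 50 to every intensity and so shrinks differences between dim signals. Brightness tracked this loss. Where the brightest EpiSC array was at -1 or more, 136 of 149 higher and 71 of 103 lower genes remained under normexp. Among dimmer genes, 45 of 151 and 5 of 224 did.

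The rule admits genes that differed in several ways, and the pattern of levels differed between its directions. Among the 300 with the higher response, 111 were up by 1 log2 unit or more only in the E3.5 line, 61 were up in both but more in E3.5, 55 were down only in the E5.5 line, 12 were down in both and 61 had opposite signs. Among the 327 with the lower response, 214 were down only in the E3.5 line, 51 were down in both but more in E3.5, 33 were up only in the E5.5 line, 9 were up in both and 20 had opposite signs. The classes differ in size over all genes too: 13.3% were down only in the E3.5 line, 6.01% up only in E3.5, 2.29% down only in E5.5 and 1.47% up only in E5.5.

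Set out as the gap between the lines, E3.5 minus E5.5, the higher genes fell into 133 whose gap of 1 or more was present only after treatment, 84 whose gap was present only before it, and 67 whose gap turned from one sign to the other. Of the 300, 159 had been lower in untreated E3.5 than in untreated E5.5 cells by 1 or more, as were 5.88% of all genes. The rule takes the treated gap minus the untreated gap, so it favours such gaps by itself. The counts of gaps in either direction are therefore a description only. For the lower genes the treated cells carried most of the gap: 229 of 327 differed by 1 or more only after treatment, 46 only before and 47 turned. Over all 15416 genes 12.4% gained a gap, 5.48% lost one and 0.739% turned.

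**Figure D2:**
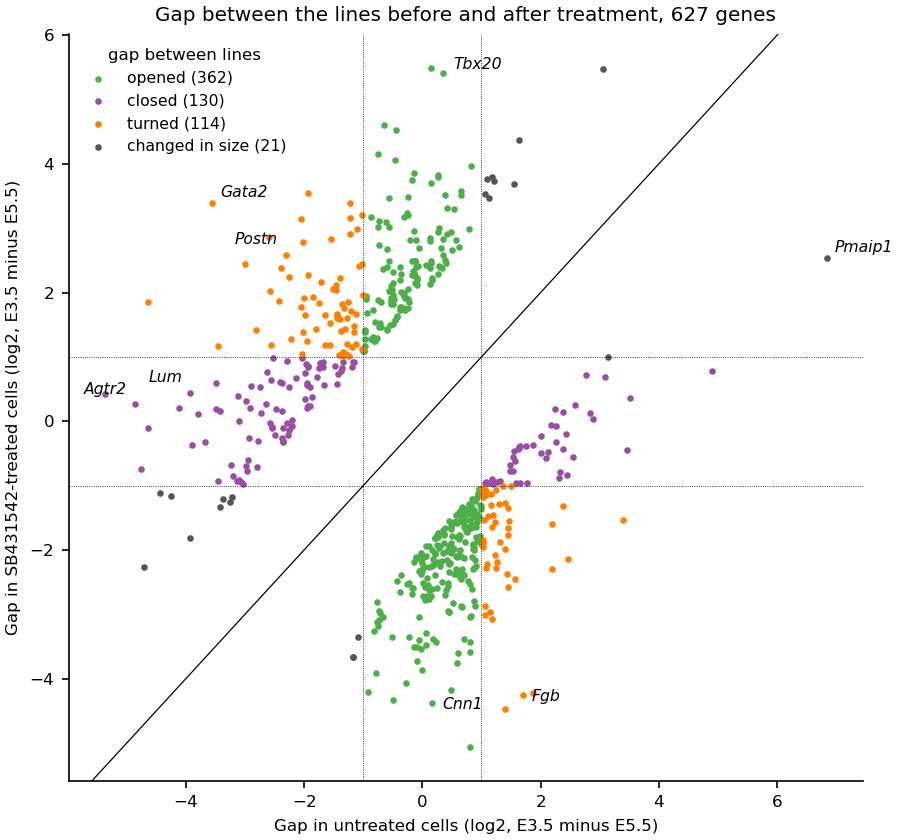
Gap between the lines (E3.5 minus E5.5, log2) in SB431542-treated cells (vertical) against untreated cells (horizontal) for the 627 genes, with dotted lines at a gap of 1 and the line of no change. In 362 genes the gap opened with treatment (green), in 130 it closed (purple), in 114 it turned (orange) and in 21 it changed only in size (grey).

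The largest difference was that of a transcription factor. Gata2, a zinc-finger factor of blood, trophoblast and some neuronal lineages, stood at -5.74, 0.13, -2.18 and -3.26. It went from the lowest of the 4 arrays to the highest in the E3.5 line, a 58.7-fold change, and was 2.11-fold lower with treatment in the E5.5 line. The difference was 6.95, and a further Gata2 probe gave 6.89. The related Gata3 stood at -5.90, -0.29, -3.96 and -2.57, up in both lines but by 5.61 in E3.5 and 1.39 in E5.5. Tbx20, a T-box factor of heart and motor neurons, stood at -5.68, -0.17, -6.02 and -5.57 and was thus high on the treated E3.5 array alone. The mES cells, whose responses the rule did not use, gave 0.39 for Gata2 and 0.58 for Gata3, and Tbx20 was not well above background there.

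Other developmental regulators were also on this side. Foxa2, a forkhead factor of endoderm, node and floor plate, stood at 0.99, 1.64, 3.37 and -0.75. Its difference of 4.77 came from the E5.5 line, where treated cells were 17.4-fold lower, while the E3.5 pair differed by 0.65. Foxa1, its close relative, stood at -3.70, -1.17, -3.05 and -5.77, higher with treatment in one line by 2.52 and lower in the other by 2.72. Shh, the Hedgehog ligand of node and floor plate, stood at -5.37, -1.87 and -5.52 and was not well above background in treated E5.5 cells. The Shh difference was at least 23.3-fold, or 4.54 log2 units, but 3.34 under normexp. Scube2, a secreted protein that helps release Hedgehog ligands, stood at -3.32, 0.08, -1.26 and -3.07. Lhx1, a LIM homeobox factor of the streak and of interneurons, stood at -0.12, 0.94, 1.89 and -0.97. In each of these 5 genes the treated E3.5 array was above the treated E5.5 array, and in all of them but Shh the untreated order was the opposite.

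**Figure D3:**
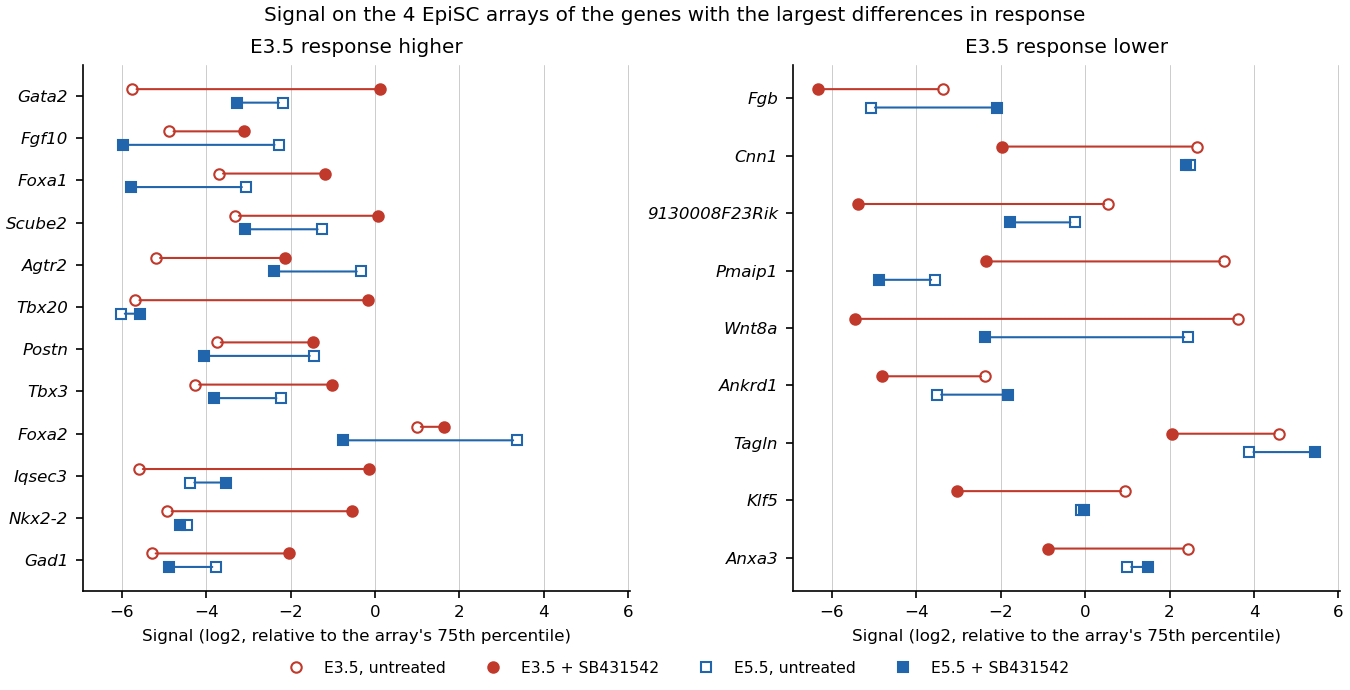
Signal (log2, relative to the array's 75th percentile) on the 4 EpiSC arrays of the 12 genes with the largest positive difference and 9 of the 12 with the largest negative difference among those well above background on all 4, 1 array per point. Open symbols are untreated and filled symbols treated cells, circles the E3.5 and squares the E5.5 line; Gata2 crosses from -5.74 to 0.13 in the E3.5 line, and Cnn1 stays near 2.4 in the E5.5 line while it is at -1.98 in treated E3.5 cells.

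Among genes of the midbrain, hindbrain and spinal cord, 6 of 27 measured had the higher response in the E3.5 line and 4 the lower. Nkx2-2, a homeobox factor of the ventral neural tube, stood at -4.91, -0.56, -4.45 and -4.61, a 20.5-fold change in the E3.5 line with 1.12-fold in the other. Nkx6-1 stood at -0.52, 2.27, -0.31 and -0.54, and Nkx6-2 at 1.91, 4.29, 1.09 and 0.32. All 3 were highest on the treated E3.5 array, and the E5.5 pair moved by less than 1. Dbx1, a homeobox factor of spinal progenitors, was also on this side, with 4.75 and 2.43. On the lower side, Olig3, a basic helix-loop-helix factor of the dorsal neural tube, stood at 0.43, 0.67, -0.79 and 2.23, so that here the treated E5.5 array was the highest. Hoxb1, a marker of the fourth rhombomere, stood at -0.89, 0.20, -2.34 and 1.86, and Gbx2, a factor of the anterior hindbrain, at 0.81, 0.42, -0.72 and 1.20. Olig2 was the remaining one, but its difference of -2.24 shrank to -0.55 under normexp and its further probe gave 0.70. The median difference of this list was -0.03 and turned to 0.36 under normexp, so the list as a whole had no direction.

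The neuronal markers were the list with most members on one side after the fibroblast markers. Of 29 measured, 11 had the higher response in the E3.5 line and none the lower, against 1.95% and 2.12% of all genes. The median response was 3.51 in the E3.5 line and 2.19 in the E5.5 line, and 25 of 29 differences were positive. The median difference of 1.39 ran up to 1.70 under the alternatives, and 9 of the 11 remained under normexp. The median gap between the lines was -0.03 before treatment and 1.63 after it. Summed over the 29 genes, the signal was 30.7 and 136 in untreated and treated E3.5 cells and 14.4 and 42.9 in E5.5 cells, so by this sum the untreated lines were apart as well.

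Dcx, a microtubule protein of migrating neurons, stood at -3.91, 1.72, -3.54 and -0.68, up 49.7-fold in the E3.5 line and 7.29-fold in the E5.5 line, and its 2 further probes gave differences of 2.11 and 1.18. Isl1, a LIM homeobox factor of motor and sensory neurons, stood at -4.41, 0.27, -4.26 and -3.59. Gad1, which makes the transmitter GABA, stood at -5.29, -2.05, -3.75 and -4.88, up in the first line and down by 1.13 in the second. Most of these genes were raised in both lines and raised more in E3.5, while Gad1 had opposite signs. Nhlh2, a neuronal basic helix-loop-helix factor, stood at -0.02 in treated E3.5 and -2.09 in treated E5.5 cells and was not well above background in untreated E3.5 cells, which puts the difference at 7.30-fold or more. Another 6 members of the list, among them Myt1l, Nhlh1 and Nefm, differed by 2.03 to 2.45. Neurod4 was not well above background on either untreated array, so its difference has no bound. Not every neuronal gene did this: the proneural factor Neurog2 gave 2.07 in E3.5 and 1.76 in E5.5. Among 27 neural progenitor genes no member met the rule, and the median responses of 1.80 and 1.71 were close.

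Axon guidance receptors and ligands added 6 of 34 genes with the higher response and 1 with the lower. Dcc, the receptor for netrin, stood at -5.51, 0.55, -5.66 and -3.15, and Ntn1, which encodes netrin, at -3.93, -1.02, -4.28 and -3.85. Epha3, an Eph receptor, stood at -5.83, -0.52, -5.27 and -3.98. Nrp1, the semaphorin receptor, stood at -5.83, -2.88, -4.50 and -4.64. The treated E3.5 array was the highest for each of them, although further probes gave Ntn1 and Nrp1 smaller differences of 1.30 and 1.83. Slit2 and Slit3, ligands of the Robo receptors, also met the rule, but Slit3 did so because it was lower by 2.89 in the treated E5.5 cells. Sema3c, a secreted semaphorin, went the other way, at -4.68, -4.24, -5.43 and -2.51, with a difference of -2.47 that shrank to -0.72 under normexp.

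Collagen and other fibroblast genes were the list with most members on the higher side. Of 26 markers of fibroblasts and feeder cells, 12 had the higher response in E3.5 and 1, S100a6, the lower. The median response was 0.74 in the E3.5 line and -0.64 in the E5.5 line, and the median difference of 1.72 stayed between 1.42 and 1.97 under the alternatives. Col1a1, the main chain of type I collagen, stood at 1.15, 3.14, 3.71 and 1.96, and 2 further probes gave differences of 3.59 and 2.26. Lum, a small proteoglycan of collagen fibrils, stood at -1.75, 1.28, 2.17 and 0.84. Postn, the matrix protein periostin, stood at -3.75, -1.46, -1.45 and -4.04. In each the untreated E5.5 array was above the untreated E3.5 array by more than 2, and with treatment the first was lower and the second higher.

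Dpt, the matrix protein dermatopontin, was not well above background in untreated E3.5 cells and stood at -1.92, -4.63 and -4.17 on the others. The Dpt difference was at least 15.8-fold, or 3.98 log2 units, but 2.95 under normexp. Col3a1 stood at -0.64, 2.23, 2.17 and 0.81, but a further probe of that gene gave a difference of 0.67. The other 7, from Lox, which cross-links collagen, to Fap, differed by 2.14 to 2.97. Of the 12, 11 had been lower by 1 or more in untreated E3.5 than in untreated E5.5 cells, and 6 were higher by 1 or more in treated E3.5 than in treated E5.5 cells. The rule that picked the 12 favours both of these gaps. Summed over the 26 markers, the signal was 99.3 and 151 in untreated and treated E3.5 cells and 146 and 158 in E5.5 cells, with 24 of 26 well above background on the first of these arrays and 26 on the others. The mES arrays had 48.4 and 73.5. Vim, at log2 signals of 5.89, 6.59, 5.28 and 6.54 on the EpiSC arrays, made up a large part of these linear sums. The sums therefore do not show how the other markers moved, and the higher sum in treated E5.5 cells is not a general rise. Whether cells that carry these markers, such as feeder cells, differed in number between the cultures was not tested, and in bulk RNA fewer cells of a type cannot be told apart from less RNA per cell. Not all fibroblast markers took part, since Vim, Fn1 and Mmp2 differed by less than 1 between the lines' responses.

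Among the 61 genes up in E3.5 and down in E5.5 were also secreted factors and a receptor. Fgf10, a growth factor made by mesenchyme, stood at -4.87, -3.10, -2.28 and -5.97. Agtr2, the type 2 receptor for angiotensin II, stood at -5.19, -2.14, -0.33 and -2.40. Ogn, the small proteoglycan osteoglycin, was not well above background in untreated E3.5 cells and stood at -2.27, -1.81 and -4.13 on the others. The Ogn difference was at least 84.9-fold, or 6.41 log2 units, but 3.96 under normexp. Untreated E3.5 cells were the dimmest group for Agtr2 and Ogn, while for Fgf10 the treated E5.5 cells were. Igf1, the insulin-like growth factor, gave 1.83 and -2.04, and Igfbp6, a binding protein for such factors, gave 1.80 and -1.78. Fgf10, Agtr2 and Igfbp6 also stood higher in treated than in untreated mES cells, by 1.73, 1.43 and 2.02. Ptx3, a soluble pattern-recognition protein that did not have opposite signs, stood at -0.88 in treated E3.5 cells and was not well above background before treatment. The Ptx3 difference was at least 24.4-fold, or 4.61 log2 units, but 3.55 under normexp, and a further probe gave 5.30.

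Genes of blood and endothelium added 3 of 19 with the higher response, namely Gata2, Cdh5 and Cd34. The list's median difference of 0.56 ran from -0.02 to 0.81 under the alternatives. Cdh5 was not well above background in untreated E3.5 cells, and its difference of 3.59 shrank to 1.42 under normexp. Cd34, a sialomucin of haematopoietic progenitors and vessels, stood at -1.49, -0.96, 0.46 and -2.20, so its difference of 3.19 came from the E5.5 line. Among the 26 interferon response genes of the list Ifit3 alone met the rule, at -3.87, -1.83, -0.19 and -1.52. The list does not hold every such gene. Outside it, Ifit3b, Ifi205 and Ifi204 were among the members on the higher side, at 4.53, 2.67 and 2.34. Gbp2b was on the lower side, at -2.66. Under normexp these differences fell to 1.62, 1.62, 1.59 and -1.45, below the threshold.

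On the side of the lower response stood genes of the contractile apparatus. Of 19 measured, 4 met the rule with the lower response in E3.5 and none with the higher, and all 4 remained under normexp. Of the 19 differences 18 were negative, where the median over all genes was negative too, at -0.20. The median response was -1.01 in the E3.5 line and 0.25 in the E5.5 line. The median difference of -1.18 stayed between -1.33 and -0.92 under the alternatives. Cnn1, the actin-binding protein calponin of smooth muscle, stood at 2.64, -1.98, 2.48 and 2.40. Tagln, which encodes the smooth muscle protein transgelin, stood at 4.59, 2.07, 3.89 and 5.45, and a further probe gave a difference of -4.86. Acta1, skeletal muscle alpha-actin, stood at 0.58, -2.81, -0.29 and -0.01, and Ankrd1, an ankyrin-repeat protein of stressed muscle, at -2.37, -4.80, -3.51 and -1.84. Untreated, the lines were apart by 0.16 in Cnn1, 0.70 in Tagln, 0.88 in Acta1 and 1.14 in Ankrd1, and the treated E3.5 array was the lowest in all 4. In the E5.5 line Tagln and Ankrd1 were higher with treatment by 1.57 and 1.67.

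The rest of the list lay on the same side by less on the probes used, except for 1 gene at 0.13. Acta2, smooth muscle alpha-actin and among the brightest of these probes, stood at 5.29, 4.48, 5.31 and 5.40, a difference of -0.90, while the mean over its probes gave -2.76. Summed over the 19 genes the signal was 172 and 95.8 in the E3.5 line and 163 and 213 in the E5.5 line, and 85.2 and 91.4 in mES cells. The 21 genes of the TGF-beta response had no common direction, with 3 on the lower side, Tagln, Tgfbi and Ccn2, and 2 on the higher, Col1a1 and Ltbp2. Tgfbi, a matrix protein named for its induction by TGF-beta, stood at 1.17, 0.24, 2.33 and 3.90. Ccn2, a matricellular growth factor, stood at 3.72, 1.99, 2.93 and 3.64, and Ltbp2, a latent TGF-beta binding protein, at -1.63, -2.28, 1.15 and -1.97.

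Contractile genes are known targets of serum response factor, which binds the CArG box, and the promoters of 3 of the 4 are shown because these genes moved together in the E3.5 pair. The sequences run from 250 bases before to 50 bases after the annotated start and are RefSeq's for GRCm38.p6, where the table held no entry for Tagln. Capitals mark a CArG box or the letters TATAAA, searched on both strands.
Acta1, chr8:123894726-123895025, minus strand: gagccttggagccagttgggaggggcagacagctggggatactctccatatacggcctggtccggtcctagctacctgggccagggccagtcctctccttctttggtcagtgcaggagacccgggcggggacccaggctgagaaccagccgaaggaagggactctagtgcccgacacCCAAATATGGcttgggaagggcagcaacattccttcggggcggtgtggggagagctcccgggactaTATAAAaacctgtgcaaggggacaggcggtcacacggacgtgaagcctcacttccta
Cnn1, chr9:22099003-22099302, plus strand: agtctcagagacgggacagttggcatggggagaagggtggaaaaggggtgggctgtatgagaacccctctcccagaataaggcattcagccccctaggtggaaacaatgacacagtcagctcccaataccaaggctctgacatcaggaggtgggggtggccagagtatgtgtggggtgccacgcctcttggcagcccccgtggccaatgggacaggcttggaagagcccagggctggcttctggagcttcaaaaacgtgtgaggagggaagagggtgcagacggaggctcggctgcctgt
Ankrd1, chr19:36119795-36120094, minus strand: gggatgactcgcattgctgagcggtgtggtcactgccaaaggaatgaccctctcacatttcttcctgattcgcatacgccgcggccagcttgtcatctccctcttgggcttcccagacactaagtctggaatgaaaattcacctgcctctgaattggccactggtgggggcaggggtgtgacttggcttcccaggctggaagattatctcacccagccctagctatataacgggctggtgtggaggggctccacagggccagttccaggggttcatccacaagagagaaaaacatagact
The Acta1 promoter held a CArG box that begins at position -73 from the start and TATAAA that begins at -7, and the other 2 windows held neither. A CArG box occurred in 1.41% of the promoters of the genes with the lower response, 1.38% of those of the higher genes and 1.39% of those of all genes measured. Over all 32851 promoters of the table the share was 1.63%. TATAAA was in 21.8% of the promoters of the lower genes, 14.2% of those of the higher genes, 10.2% of those of all genes measured and 13.6% of the whole table. In the same order of lower, higher and all measured genes, CAGACA, which SMAD proteins can bind, was in 19.7%, 17.0% and 17.5%, and CTTTGAT, a TCF/LEF motif, in 1.76%, 1.38% and 2.91%. A looser form of the CArG box, with any 6 bases between CC and GG, was in 69.7%, 79.6% and 82.0%. Promoters were matched for 240 of the 327 lower and 222 of the 300 higher genes, and a match of letters is not a binding site.

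Genes of the Nodal pathway were among the largest differences although most of the pathway responded alike. Of 22 measured, 3 had the lower response in E3.5 and none the higher, and the other 19 included Lefty1, Lefty2 and Tdgf1 with differences of -0.49, 0.30 and -0.37. Gdf3, a Nodal-related ligand, stood at 2.55, -5.39, 2.37 and -2.002. Fst, which encodes the Activin-binding protein follistatin, stood at 1.88, -2.70, 1.90 and 0.84. Both began at nearly the same level in the lines and were down in both, but by far more in E3.5, and the mES pair gave -0.12 and 0.20.

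Of 20 core pluripotency genes 2 had the lower response and none the higher, of 23 primed epiblast genes 2 had the lower and 1 the higher, and of 18 naive pluripotency genes 3 had the lower and 2 the higher. Wnt8a, a Wnt ligand of the epiblast and streak, stood at 3.62, -5.44, 2.45 and -2.37, 534-fold lower with treatment in the E3.5 line and 28.2-fold in the E5.5 line. Trap1a, an X-linked antigen gene active in pluripotent cells, stood at 2.74, 1.35 and -3.76 in untreated E3.5, untreated E5.5 and treated E5.5 cells and was not well above background in treated E3.5 cells. Its difference was at least 21.0-fold. Klf5, a Krüppel-like factor of naive pluripotency and trophectoderm, stood at 0.95, -3.03, -0.11 and -0.02, down 15.9-fold in one line and level in the other. Against these, Tbx3 and Esrrb, also factors of naive cells, had the higher response in E3.5: Tbx3 stood at -4.26, -1.02, -2.24 and -3.81 and Esrrb at -3.50, -2.15, -2.27 and -5.06. Both were far below their mES signals of 1.81 and 4.28 on every EpiSC array. Zfp42 had a difference of -2.13, which was -0.82 under normexp.

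Genes of retinoic acid response and the Hox clusters differed between the lines one by one rather than as whole lists. Of 23 retinoic acid genes 3 had the lower response in E3.5 and none the higher. Hoxb1 and Crabp1 did so through larger increases in the E5.5 line: Crabp1, a retinoic acid binding protein, stood at 3.19, 5.46, 2.83 and 7.36. In the Hox clusters 4 of 29 genes, Hoxb1, Hoxb3 and Hoxa13 among them, had the lower and 3, Hoxb8, Hoxa7 and Hoxd4, the higher response. Hoxb3 is uncertain, since its difference of -2.22 was -1.44 under normexp and a further probe gave 0.42. For Hoxa13 the mean over probes gave -1.39 against -2.75 on the main probe. Hoxa7 stood at -1.09, 0.23, -2.27 and -3.56. The Hox list's median of -0.14 turned to 0.35 under normexp and that of the retinoic acid genes from -0.33 to 0.24, so neither had a stable sign.

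Among 27 Wnt genes 5 had the lower response and 1, Lgr5, the higher, with a median difference of -0.57 that stayed between -0.57 and -0.30. Wnt3a stood at -2.60, -0.06, -3.55 and 1.44, up in both lines and more in E5.5. Wnt6 stood at -1.87, -2.54, -4.24 and -2.11 and Rnf43, an antagonist that removes Wnt receptors, at -2.10, -2.77, -2.57 and -0.75. Under normexp the differences of these 3 shrank to -1.63, -1.35 and -1.64, and of the 5 lower genes only Wnt8a stayed past the rule. Cdx2, the caudal factor of trophectoderm and posterior streak, stood at 0.62 and -4.28 in untreated E3.5 and E5.5 cells and was not well above background in treated cells of either line, so the size of its difference has no bound.

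Epithelial genes were lower after treatment in both lines and started from a higher level in E3.5 cells. Of 25 measured, 24 were lower by 1 log2 unit or more in the E3.5 pair and 15 in the E5.5 pair. The median response was -3.02 in one and -1.46 in the other. The median gap between the lines was 1.08 before treatment and 0.09 after it. The median difference of -1.04 stayed between -1.27 and -0.79. Krt8, a keratin of simple epithelia, stood at 3.86, 0.57, 2.78 and 1.51, its partner Krt19 at 2.38, -1.83, -0.39 and -2.54, and the membrane protease St14 at 0.18, -3.62, -2.08 and -3.55. Rab25, a GTPase of epithelial recycling endosomes, was the remaining member. These 4 differences ran from -2.40 to -2.02, close to the threshold, and those of Rab25 and Krt19 were -1.47 and -1.78 under normexp, while Krt8 and Krt19 dropped out under other scalings.

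The p53 target list also leaned to the lower side, with 3 of 22 genes there and 20 of 22 differences negative. Its median difference was -0.72, between -0.72 and -0.47 under the alternatives, against -0.20 over all genes. Of the 3, 2 remained under normexp and 2 under all of the other scalings. Pmaip1, which encodes the BH3-only protein Noxa, stood at 3.29, -2.35, -3.55 and -4.89. It was bright only in untreated E3.5 cells among the EpiSC arrays, and at 1.75 and 1.51 in mES cells. Perp, a membrane protein of desmosomes and a p53 target, stood at 3.23, -2.10, 1.23 and -1.60. Anxa3, an annexin and in none of the lists, stood at 2.43, -0.87, 0.99 and 1.49, so the treated E3.5 array was the lowest and the E5.5 pair moved the other way by 0.50.

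Few genes were down in E3.5 and up in E5.5. Of the 20, Fgb, the fibrinogen beta chain made by visceral endoderm and liver, had the largest difference among those above background on all 4 arrays, at -3.38, -6.33, -5.08 and -2.08. Mme, the membrane peptidase neprilysin, stood at -1.14, -2.71, -3.33 and -1.11, and its further probe gave -2.98. Tnfrsf11b, the decoy receptor osteoprotegerin, gave -1.29 and 1.48. Aoc1, which encodes diamine oxidase, was not well above background in treated E3.5 cells and stood at -3.17, -3.98 and -2.39 on the others, a difference of at least 35.8-fold. Only 5 genes met this definition under normexp.

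Dim genes made up more of the lower than of the higher side. The median signal on the brightest EpiSC array was -2.51 for the 327 lower genes, -1.02 for the 300 higher genes and -0.08 for all genes measured. In 276 of the 327 the treated E3.5 array was the dimmest of the 4, which also held for 7326 of all 15416 genes. Of the lower genes 205 were well above background on all 4 arrays, 103 had a bound and 19 had none, against 228, 52 and 20 of the higher. With signals below background set to the lowest signal above it, 263 of the 327 and 270 of the 300 still differed by 2 or more. Another 231 genes differed by as much before the background filter and failed it.

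One gene family stood out among the dim genes and was picked after its values were seen. Of 886 odorant receptor genes (Olfr) on the array, 623 were measured, and 59 of them, or 9.47%, had the lower response in E3.5 against 3 with the higher. Their median signals were -3.80, -4.59, -3.83 and -3.74, and -3.56 and -3.57 in mES cells, so the treated E3.5 array was the low one. Under normexp their median difference went from -0.81 to -0.05 and 1 of the 59 remained, and under cyclic loess 37 met the rule on that side. Copies of this family are alike in sequence, so a probe can read more than one gene. The 75th percentile taken off was an intensity of 1190 on the untreated and 1801 on the treated E3.5 array, and 1228 and 1459 in the E5.5 pair. An intensity equal on both arrays of a pair thus reads lower after treatment, and by more in E3.5. Whether these signals are expression or background was not tested.

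**Figure D4:**
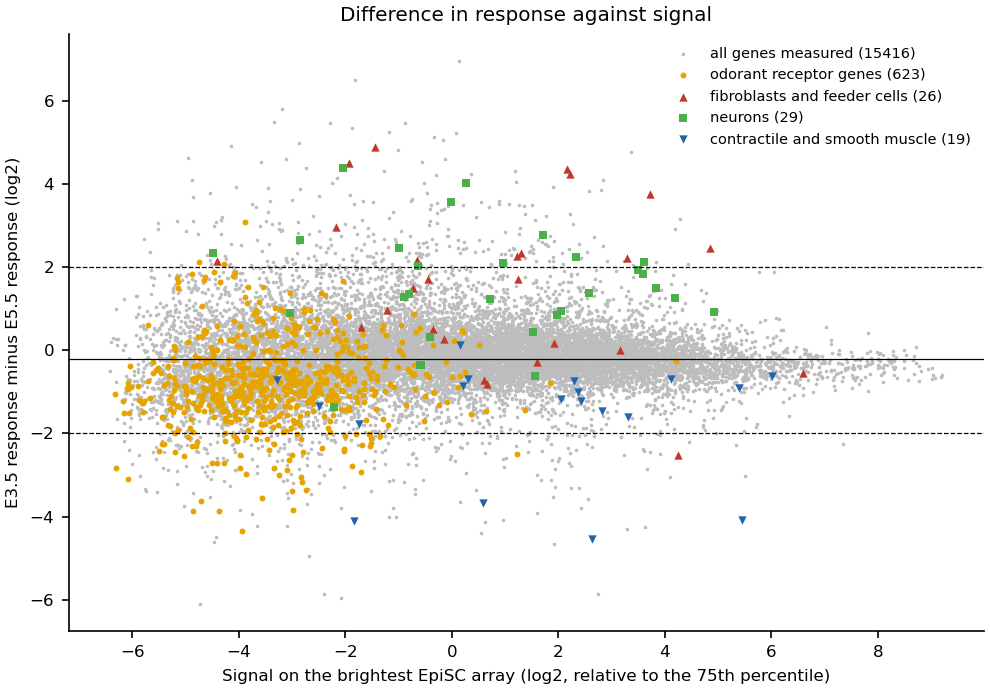
Difference in response (E3.5 minus E5.5, log2) against the signal on the brightest EpiSC array (log2, relative to the 75th percentile) for 15416 genes, with dashed lines at 2 and -2 and a solid line at the median of all genes. Odorant receptor genes (623, yellow) lie at low signal with a median of -0.81, fibroblast markers (26, red) with a median of 1.72, neuronal genes (29, green) with 1.39 and contractile genes (19, blue) with -1.18.

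Over all 37 gene lists, 828 genes were named, 787 were on the array, 750 were measured and 108 were among the 627. In 8 lists no gene met the rule: neural progenitor, mesenchymal transition, FGF and ERK response, germline, glycolysis, hypoxia response, cholesterol synthesis and cell cycle. The hypoxia and glycolysis genes were lower in both lines after treatment, with medians of -1.47 and -1.14 for the first and -1.29 and -1.04 for the second. Cell cycle genes had medians of -0.51 and -0.03, and 25 of 28 differences were negative. The median difference over all genes was itself negative, at -0.20. BMP pathway genes, the branch that SB431542 spares, had 3 of 25 on the higher side, Gata2, Gata3 and Id4, and 1, the BMP antagonist Nog, on the lower. Id4, an inhibitor of basic helix-loop-helix factors, stood at -4.43, -0.07, -2.44 and -0.83 and a further probe gave 2.82. The sign of the BMP list's median, -0.18, turned to 0.08 under cyclic loess.

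**Figure D5:**
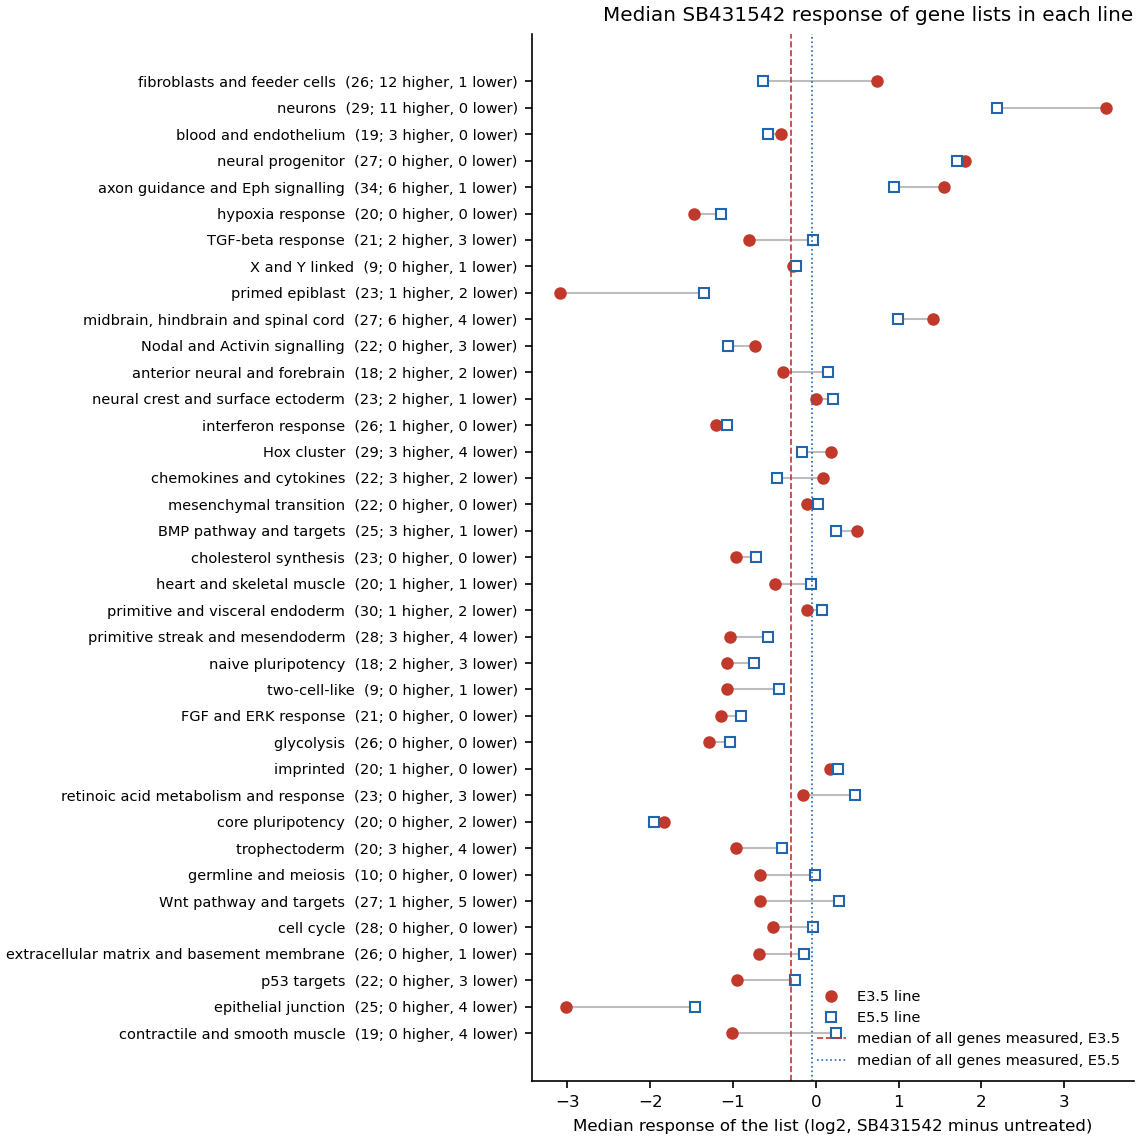
Median SB431542 response (log2) of 37 gene lists in the E3.5 line (red circles) and the E5.5 line (open blue squares), ordered by the median difference; brackets give the genes measured and those with the higher and lower response in E3.5, and vertical lines the medians over all genes. Fibroblast markers (0.74 and -0.64) and neurons (3.51 and 2.19) lie at the top, contractile genes (-1.01 and 0.25) and epithelial genes (-3.02 and -1.46) at the bottom; the order of lists near 0 changes with the scaling.

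The responses in the mES pair were not used by the rule. Of the 627 genes, 574 were well above background on the brighter mES array, and 516 of these, or 89.9%, moved by less than 1 log2 unit there, against 97.8% of all genes measured. Of the higher genes measured in mES cells, 33 of 259 were up by 1 or more and 8 down. Of the lower genes 8 of 315 were up and 9 down, and of all genes measured there 1.29% were up and 0.940% down. The mES response was nearer to that of the E5.5 than of the E3.5 line for 271 of 315 lower genes and for 160 of 259 higher genes, and for 71.8% of all genes. Nearness is measured against the responses of the lines, which the rule did use. Most members moved little in mES cells, so being nearer to the line that moved less is partly built in. These counts are a description only. Since the E5.5 and mES arrays share a slide and the E3.5 arrays do not, slide and line cannot be told apart in these counts.

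Further probes gave a reading of the same RNA at other sequences. For 129 of the 627 genes another probe was measured, 167 probes in all, and 147 of them had the sign of the main probe, 113 with a size of 1 or more. Another 20 had the opposite sign, 5 of them with a size of 1 or more, from Prelp, Scrt1, Slc15a2 and Runx2. Dab2, Tnc, Ngfr and Pax1 are uncertain for this reason: their further probes gave -0.44, -0.58, 0.01 and -0.16 against -2.05, -2.36, 3.49 and 4.97 on the main probe. Genes next to the threshold show how little separates those in from those out. On the higher side Mpped1 and Phf11a were just inside at 2.003 and 2.005, and Coro1a and Fgd5 just outside at 1.999 and 1.998. On the lower side Foxc1 was inside at -2.002 and Olfr67 and Mybpc2 outside at -1.990 and -1.989.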

How the data were processed

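RNA of 6 mouse samples was read on Agilent arrays, 1 per group, with groups as the sample titles give them. The authors deposited each array's scanner output, whose spot intensity is linear and, per the file headers, already had background subtracted and spatial trends removed. Those headers give Feature Extraction 10.7.1.1, whereas 9.1 stands in the submitters' processing notes, and it is not settled which of them applied. The deposited value table held the same intensities at 45018 of 45018 spots on each array. Marks for signal above background, outliers and saturation are other values that the same program wrote, per the file headers.

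Outlier spots (52 to 101 per array) were dropped from the 43379 gene spots, and control spots were not used. Repeat spots were averaged, and log2 intensity was taken minus the array's 75th percentile. That percentile was an intensity of 1190 on the untreated and 1801 on the treated E3.5 array, the lowest and highest of all. It was 1228 and 1459 in the E5.5 pair and 1384 and 1280 in the mES pair. Of 41165 probes, 24373 were named through RefSeq accessions (GRCm38.p6) and gave 17015 genes. Where a gene had several probes, the one brightest on average over the arrays stood for it. The array design names mm8, so no gene coordinates are given except those of RefSeq promoters.

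With 1 array per group the line-by-treatment difference has 0 residual degrees of freedom, so no test was run. Where a signal was not well above background, a fold is given as "at least N-fold" against the higher of the probe's own signal and the lowest signal well above background on that array. Such a bound holds for the main scaling only, and under normexp some differences were below it. Genes named are the 12 with the largest differences in each direction above background on all 4 arrays, 8 with opposite signs in each direction, 5 with the largest bounds in each direction, up to 5 members of each of 37 lists, those next to the threshold and 14 fixed genes. Some genes that these rules name are not reported here. Other names and the odorant receptors were chosen after their values were seen. The members and lists were chosen with earlier results of these data known.

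The alternatives were quantile and cyclic loess normalization and normexp with an offset of 50 (limma 3.58.1, R 4.3.3), the percentile over bright probes, 3 background filters, the mean over probes, the value table, and, chosen after seeing the data, centred responses. Normexp used the median spot signal, since the mean signal was not in the files used here. Leaving out a replicate was not possible with 1 array per group. The CArG pattern was added after the other motifs. The calculations were tested on simulated data, with changes well beyond the threshold. All of those signals were set above background, apart from a small check of the bounds. The test therefore says little about dim genes or genes near the threshold.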

Additional observations from a re-analysis of the deposited data

Results flagged for a closer look

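The lines moved in opposite directions, by 1 log2 unit or more in each, for 61 genes that were up in E3.5 and down in E5.5 and for 20 that were down in E3.5 and up in E5.5. These differences were not tested, since each line has 1 array per condition.

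Among the genes up in E3.5 and down in E5.5, the difference between the responses was 5.24 log2 units for Foxa1, 4.89 for Postn, 5.12 for Agtr2 and 5.21 for Scube2. It was 5.46 for Fgf10, 3.87 for Igf1, 3.58 for Igfbp6 and 3.75 for Col1a1.

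In the reverse direction it was -5.95 for Fgb, -4.10 for Ankrd1, -4.08 for Tagln and -3.79 for Mme. It was -3.15 for Rtp2, -2.77 for Tnfrsf11b, -2.65 for Eva1c and -2.60 for Dusp14, and under the normexp background model these 4 shrank to -0.73, -1.29, -1.92 and -1.86.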

How the results depend on the processing

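The count with the higher response in E3.5, 300, ran from 212 under normexp to 433 with centred responses. The count with the lower response, 327, was 79 under normexp, 205 with all 4 arrays required above background, and between 227 and 488 under the others. The 61 genes up in E3.5 and down in E5.5 were 40 under normexp and the 20 of the reverse direction were 5 under normexp, 12 with all 4 arrays above background, 40 without a background filter and 13 with centred responses. The filters change which genes can count, and normexp shrinks dim differences by its added constant; the cause of the other shifts was not tested. The median difference over all genes, -0.20, shifted by 0.11 with quantile normalization, 0.18 with cyclic loess, 0.18 with normexp and 0.25 with centring. Of 129 named genes, between 94 (normexp) and 129 kept their side of the threshold. Esx1 reversed, from -2.90 to 0.12 under normexp, and was not well above background on either untreated EpiSC array. No paired analysis was possible because each group holds 1 array and the lines are themselves compared. Signals near background limit the lower side most.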

Other observations

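Of 18 anterior neural and forebrain genes, 2 had the higher response in E3.5 and 2 the lower, of which 1 higher and none of the lower remained under normexp. Lhx5, a LIM homeobox factor of the early forebrain, stood at -2.25, 1.36, -1.52 and -1.38 in untreated E3.5, treated E3.5, untreated E5.5 and treated E5.5 cells, so only the E3.5 pair differed. Dlx2, a homeobox factor of forebrain interneurons, stood at -4.49, -4.83, -5.74 and -2.64, so only the E5.5 pair did, although its difference of -3.44 was -1.03 under normexp. Iqsec3, an exchange factor for ARF proteins at inhibitory synapses, stood at -5.60, -0.14, -4.38 and -3.52.

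Chemokine and cytokine genes had 3 of 22 members with the higher response in E3.5 and 2 with the lower. Ackr3, a scavenging receptor for the chemokine CXCL12, stood at -1.49, 1.52, -0.21 and 0.47. Il33, an alarmin cytokine, stood at -0.62, -3.92, -1.67 and -2.96, and its difference of -2.02 fell below the threshold under normexp (-1.53) and under each of the other scalings, where it ran from -1.96 to -1.77. Nkx2-5, a homeobox factor of the heart, stood at -3.94, -5.95, -4.19 and -3.36, and its difference of -2.84 shrank to -1.02 under normexp.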
